A study of Macaca mulatta with 12 samples.

Results

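NR5A1 and NR5A2 and their partners GATA4 and GATA6 are transcription factors that switch on the genes of steroid hormone synthesis in the gonads. Their messenger RNAs were followed in corpora lutea of rhesus macaques with normal menstrual cycles. The genes were taken by name from the array's annotation, through every probe set assigned to exactly 1 of the 4, which gave 4 of the 14132 genes measured and 8 of the 52707 probe sets tested: 1 for NR5A1, 3 for NR5A2, 3 for GATA4 and 1 for GATA6. One array was run per gland on 12 glands in 3 groups of 4 biological replicates, all from natural, untreated cycles. Late regressed glands were collected 14 to 16 days past the LH surge from animals whose serum progesterone was under 0.5 ng/ml. Late functional glands came from the same days with serum progesterone over 1.5 ng/ml. Mid-late glands, the baseline, were collected at 10 to 12 days. No source used here gives the animals' ages.

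The corpus luteum forms from the ruptured follicle and makes progesterone from cholesterol until it regresses. NR5A1 (steroidogenic factor 1) and NR5A2 (liver receptor homolog 1) are orphan nuclear receptors of 1 family that bind the same DNA element as monomers. In mice NR5A2 is the member that luteal function depends on, while NR5A1 is the main factor of adrenal and gonadal development. GATA4 and GATA6 are zinc finger proteins that bind GATA elements beside NR5A sites in promoters such as those of STAR, CYP19A1 and HSD3B2, and in mouse granulosa cells they can partly replace each other. The activity of all 4 also depends on phosphorylation and on partner proteins, which an array for messenger RNA does not see. No sequences of the probe sets, promoters or proteins were used here.

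Values below are log2 values per probe set made by the authors with RMA, which corrects background, brings arrays to a common scale and summarises the probes of a set. An increase of 1 is a doubling, and the level of one probe set cannot be set against that of another. A difference is the mean of one group minus that of another on this scale, with its standard error (SE) from a limma fit of every tested probe set on the 12 arrays. Adjusted p-values are Benjamini-Hochberg values over all of them, and a call means an adjusted p under 0.05. Because each array holds RNA of a whole gland, fewer steroidogenic cells and less RNA per cell cannot be told apart. The tissue label was checked on 5 measured luteal markers (STAR, HSD3B2, FDX1, INHA and CYP19A1), whose means over the 12 arrays ran from 10.06 to 12.78, all at or above the 98.04th percentile of probe sets. Late regressed arrays 2 and 3 stood apart from the other 10, with scores of 93.2 and 81.6 on the first principal component against -43 to 12.6. Array 2 also had the largest excess of 3′ over 5′ signal of the actin and GAPDH controls, a sign of RNA degradation, at 2.52 against 0.46 to 0.70 on the other 11 arrays. The late regressed against mid-late differences of NR5A1, NR5A2 and GATA6 are given with and without these 2 arrays, as are some other results.

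Each of the 4 factors, taken by its brightest probe set, had a lower mean in late regressed than in mid-late glands. Only GATA6 was called, at 68.4% of the mid-late level. NR5A2 stood at 58.4% by the same measure with a wider spread among the late regressed arrays, and 1 of its 3 probe sets, not the brightest, was called. NR5A1 (71.5%) and GATA4 (79.3%) were not called. No factor was called between late regressed and late functional glands, or between late functional and mid-late ones.

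**Figure D1:**
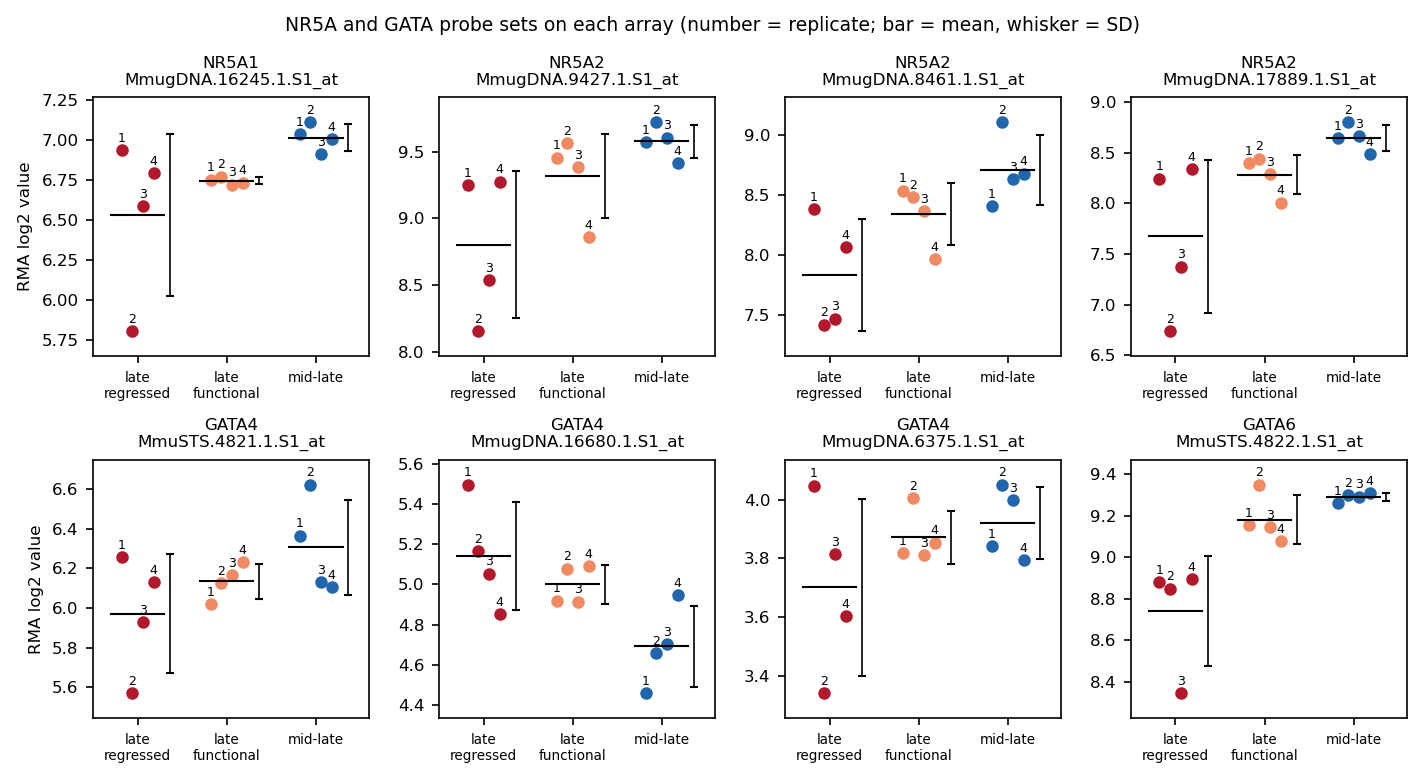
RMA log2 value of each of the 8 probe sets (panels, each with its own vertical axis) on the 4 late regressed, 4 late functional and 4 mid-late arrays. Points are arrays with their replicate number, bars are means and whiskers the SD. GATA6 lies between 8.34 and 8.89 on all 4 late regressed arrays, below every other array, while NR5A1 and NR5A2 are lowest on late regressed arrays 2 and 3.

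NR5A1 was read by 1 probe set, MmugDNA.16245.1.S1_at, with 6.94, 5.81, 6.59 and 6.79 on late regressed arrays 1 to 4, 6.75, 6.77, 6.72 and 6.73 on late functional arrays and 7.04, 7.11, 6.91 and 7.00 on mid-late arrays. The 4 late functional arrays lay within 0.05 of each other and below all mid-late arrays. Late regressed array 2 was by far the lowest of the 12, and array 1 lay inside the mid-late range. Late regressed glands averaged 6.53 ± 0.50 and mid-late glands 7.02 ± 0.08 (SD, n = 4 arrays each), a log2 difference of -0.48 (SE 0.19, 95% interval -0.90 to -0.07) that was not called (adjusted p = 0.116). Without late regressed arrays 2 and 3 the difference was -0.15 (adjusted p = 0.348).

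Between late functional glands, at 6.74 ± 0.02, and mid-late glands, at 7.02 ± 0.08, NR5A1 differed by -0.27 (SE 0.19, limma adjusted p = 0.471). This p-value carries the wide spread of the late regressed arrays, since all groups share 1 variance estimate. With only the late functional and mid-late arrays in the fit the adjusted p was 0.0515, and with late regressed arrays 2 and 3 removed it was 0.0504. NR5A1 thus lay lower on 4 of 4 late functional arrays and passed the threshold in none of these fits. Of all probe sets, 8.53% had every late functional array below every mid-late one.

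NR5A2 was read by 3 probe sets whose values went together over the 12 arrays (r from 0.91 to 0.98), each with late regressed arrays 2 and 3 and late functional array 4 as its 3 lowest. The highest of them, MmugDNA.9427.1.S1_at, had 9.25, 8.15, 8.54 and 9.28 on late regressed arrays 1 to 4, 9.46, 9.56, 9.39 and 8.86 on late functional arrays and 9.57, 9.72, 9.61 and 9.42 on mid-late arrays. All 4 late regressed arrays lay below all mid-late ones, arrays 2 and 3 by the most. Late functional array 4 lay below late regressed arrays 1 and 4, so the 2 late groups overlapped.

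The late regressed and mid-late means of that probe set were 8.80 ± 0.55 and 9.58 ± 0.13 (SD, n = 4 each). The log2 difference was -0.78 (SE 0.24, 95% interval -1.29 to -0.26), a 1.71-fold lower level that missed the threshold (limma adjusted p = 0.0579). The other probe sets gave log2 differences of -0.98 (MmugDNA.17889.1.S1_at, SE 0.29, adjusted p = 0.0529) and -0.87 (MmugDNA.8461.1.S1_at, SE 0.22, adjusted p = 0.0343). The last was the 1 called probe set of NR5A2, and its call held in 8 of 21 alternative settings. With the mean of the 3 probe sets as the measure, NR5A2 was called lower by 0.87 (adjusted p = 0.0404).

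The size of the NR5A2 difference rested on late regressed arrays 2 and 3. Without them it was -0.32 for MmugDNA.9427.1.S1_at, -0.48 for MmugDNA.8461.1.S1_at and -0.36 for MmugDNA.17889.1.S1_at, and no probe set was called (limma adjusted p = 0.326, 0.212 and 0.158). With the control probes' 3′ excess added to the model, MmugDNA.9427.1.S1_at differed by -0.61 (adjusted p = 0.0746). The 3′ excess was 2.52 on late regressed array 2 and 0.46 on array 3, where this probe set lay 1.43 and 1.04 below the mid-late mean, and its part in the difference was not tested further.

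The 3 probe sets of GATA4 differed in direction. The brightest, MmuSTS.4821.1.S1_at, had 6.26, 5.57, 5.93 and 6.13 on late regressed arrays 1 to 4, 6.02, 6.13, 6.17 and 6.23 on late functional arrays and 6.36, 6.62, 6.13 and 6.10 on mid-late arrays. The groups overlapped, and the difference between late regressed and mid-late arrays of -0.33 (SE 0.15, 95% interval -0.66 to -0.01) was not called (limma adjusted p = 0.161).

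The second GATA4 probe set, MmugDNA.16680.1.S1_at, had higher means in both late groups, with 5.50, 5.17, 5.05 and 4.85 on late regressed arrays, 4.92, 5.08, 4.91 and 5.09 on late functional arrays and 4.46, 4.66, 4.70 and 4.95 on mid-late arrays. Its difference between late regressed and mid-late arrays was 0.45 (SE 0.13, limma adjusted p = 0.0542), so it was not called either. It correlated with the brightest GATA4 probe set at r = -0.43 over the 12 arrays. The third, MmugDNA.6375.1.S1_at, averaged 3.83, under the 95th percentile (4.64) of 674 mostly dim probe sets with the identifier prefix NC that served as a guide to low signal. Which part of GATA4 each probe set reads was not tested, so no direction is given for the gene.

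GATA6 was the most uniform of the 4 within the baseline. Its probe set, MmuSTS.4822.1.S1_at, had 8.88, 8.85, 8.34 and 8.89 on late regressed arrays 1 to 4, 9.15, 9.35, 9.14 and 9.08 on late functional arrays and 9.26, 9.30, 9.29 and 9.31 on mid-late arrays. Every late regressed array lay below every array of both other groups. The mid-late arrays spanned 0.05, and the late functional arrays lay on both sides of them.

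Late regressed glands averaged 8.74 ± 0.27 for GATA6 and mid-late glands 9.29 ± 0.02 (SD, n = 4 each), a log2 difference of -0.55 (SE 0.12, 95% interval -0.80 to -0.29, limma adjusted p = 0.018). GATA6 thus fell 1.46-fold. The call held whichever single array was left out (log2 difference -0.60 to -0.41, adjusted p from 0.013 to 0.0472), and without late regressed arrays 2 and 3 together the difference was -0.40 (adjusted p = 0.0492), in a fit that called 0.63% of all probe sets lower. With the 3′ excess in the model it was -0.58 (adjusted p = 0.0206). The call was lost when only these 2 groups were fitted (adjusted p = 0.0569) and when the per-array mean of the NC probe sets was a covariate, where the difference was -0.35 (adjusted p = 0.722). That mean ran from 3.48 to 3.58 on late regressed, 3.53 to 3.61 on late functional and 3.65 to 3.75 on mid-late arrays, so it moved with the groups, and its part in the GATA6 difference was not tested further.

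Between the late groups, which share their days and differ in serum progesterone, GATA6 averaged 8.74 ± 0.27 in late regressed and 9.18 ± 0.12 in late functional glands (SD, n = 4 each). The log2 difference of -0.44 (SE 0.12, 95% interval -0.69 to -0.19) had an unadjusted p of 0.00262 and was not called over all probe sets (limma adjusted p = 0.219). NR5A2 differed by -0.51 (95% interval -1.03 to 0.01, limma adjusted p = 0.426) by its brightest probe set, and by -0.05 without late regressed arrays 2 and 3. NR5A1 (-0.21, 95% interval -0.63 to 0.20) and GATA4 (-0.16, 95% interval -0.49 to 0.16) had intervals on both sides of 0. Without late regressed arrays 2 and 3 the signs of both turned, to 0.12 for NR5A1 and 0.06 for GATA4.

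Late functional minus mid-late differences of the brightest probe sets were -0.27 for NR5A1, -0.26 for NR5A2, -0.17 for GATA4 and -0.11 for GATA6, with limma adjusted p-values from 0.471 to 0.656. By its group means, each of these 4 probe sets was lowest in late regressed, intermediate in late functional and highest in mid-late glands. No neighbours in this order passed the threshold for any of the 4, and late regressed against mid-late passed it for GATA6 only. The second GATA4 probe set had the opposite order, so no direction is given for that gene. For NR5A1 and GATA4, late regressed was lowest only with the late regressed arrays that stood apart on the first principal component. Without those arrays the late regressed minus late functional difference was 0.12 for NR5A1 and 0.06 for GATA4. It was -0.05 for NR5A2 and -0.29 for GATA6.

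**Figure D2:**
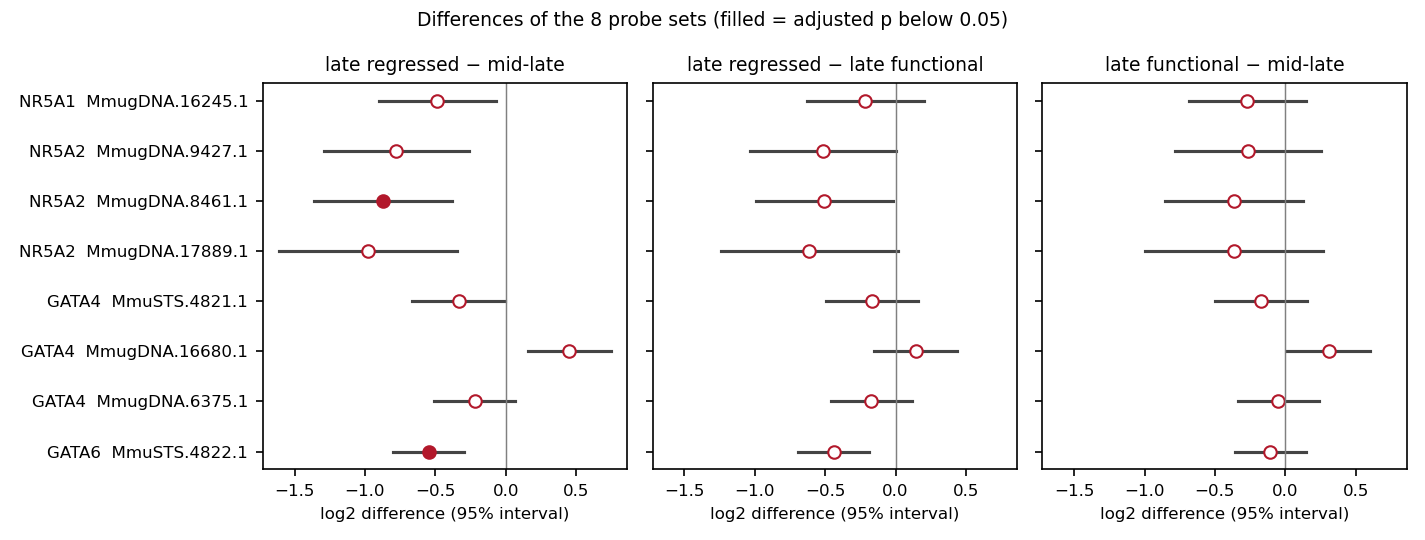
Log2 difference (points) with its 95% interval (lines) for the 8 probe sets in late regressed minus mid-late, late regressed minus late functional and late functional minus mid-late glands. Filled points have an adjusted p under 0.05: GATA6 at -0.55 and 1 NR5A2 probe set at -0.87, both in the first comparison.

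Counted over probe sets, 2 of 8 were called lower and 0 higher in late regressed against mid-late glands by limma, where 4.61% of all probe sets were called lower and 5.41% higher. Counted over genes by their highest probe set, 1 of 4 was called lower, against 5.51% of all 14132 genes. Before adjustment, 6 of 8 probe sets were lower and 1 higher at p under 0.05, and 29.6% of all probe sets passed that limit in either direction. Arrays did not overlap for 4 of 8, all lower, against 9.26% of all probe sets. Those were GATA6 and the 3 probe sets of NR5A2, which read the same gene. The median difference of the 8 was -0.52, against -0.04 over all probe sets.

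In the other comparisons limma called 0 of the 8. Between late regressed and late functional glands 0.0019% of probe sets were called, 2 of 8 were lower at an unadjusted p under 0.05 (11.8% of all passed in either direction), and GATA6 alone did not overlap (2.47% of all were lower in this way). Between late functional and mid-late glands 0.892% were called and 1 of 8, the second GATA4 probe set, was higher at an unadjusted p under 0.05 (18.7% of all passed in either direction). Arrays did not overlap there for NR5A1 and for the NR5A2 probe set MmugDNA.17889.1.S1_at, both lower, which makes 2 of 8 against 8.53% of all probe sets.

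The balance within each pair of related factors was compared as the difference between their brightest probe sets on each array. NR5A1 minus NR5A2 was -2.27 ± 0.23 in late regressed and -2.56 ± 0.12 in mid-late glands (SD, n = 4 each), a shift of 0.29 (exact permutation p = 0.0571, 0.343 adjusted over 6 such tests). GATA4 minus GATA6 was -2.77 ± 0.37 in late regressed and -2.98 ± 0.25 in mid-late glands, a shift of 0.21 (exact permutation p = 0.371, 0.557 adjusted). These tests were two-sided, and the smallest p that 4 arrays against 4 allow is 0.0286, so a single shift could not pass 0.05 after adjustment over 6 tests. The values are given as a description, and nothing is read from the adjusted p-values.

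Across the 12 arrays NR5A1 went with NR5A2 (r = 0.86, permutation p = 0.00035, adjusted over 6 pairs 0.00105; rho = 0.73, permutation p = 0.00897, adjusted 0.0269) and with GATA4 (r = 0.88, permutation p = 0.00022, adjusted 0.00105; rho = 0.67, permutation p = 0.0202, adjusted 0.0405). NR5A2 went with GATA6 (r = 0.76, permutation p = 0.00768, adjusted 0.0115; rho = 0.84, permutation p = 0.00118, adjusted 0.00708). NR5A2 and GATA4 had r = 0.76 (permutation p = 0.00307, adjusted 0.00614) but rho = 0.50 (permutation p = 0.105, adjusted 0.126), and r fell to 0.29 without late regressed arrays 2 and 3, on which it rested. The permutations shuffled values over all 12 arrays regardless of group, so differences between groups that 2 genes share also enter these p-values. Each gene is read in these pairs by its brightest probe set. The second GATA4 probe set, at r = -0.43 with the brightest, was not examined here, so the GATA4 values hold for the brightest only. GATA6 had r = 0.48 with NR5A1 (permutation p = 0.099, adjusted 0.119; rho = 0.61, permutation p = 0.0408, adjusted 0.0612) and 0.49 with GATA4 (permutation p = 0.121, adjusted 0.121; rho = 0.28, permutation p = 0.38, adjusted 0.38).

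Without late regressed arrays 2 and 3, r was 0.54 for NR5A1 with NR5A2, 0.69 for NR5A1 with GATA4 and 0.65 for NR5A2 with GATA6. Leaving out the 2 arrays farthest from the median of the first-named gene gave r = 0.65 for NR5A1 with NR5A2 and 0.66 for NR5A1 with GATA4. For NR5A2 with GATA6 those were again late regressed arrays 2 and 3, so its r of 0.65 is the same value. Among deviations from the group means, NR5A1 had r = 0.79 with NR5A2 and 0.82 with GATA4. These r values lean on the late regressed arrays, array 2 above all. NR5A1 had an SD of 0.50 there, against 0.02 in late functional and 0.08 in mid-late glands. The deviations were not examined without late regressed arrays 2 and 3. For GATA6 the r among deviations was 0.45 with NR5A2, 0.07 with GATA4 and 0.01 with NR5A1.

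**Figure D3:**
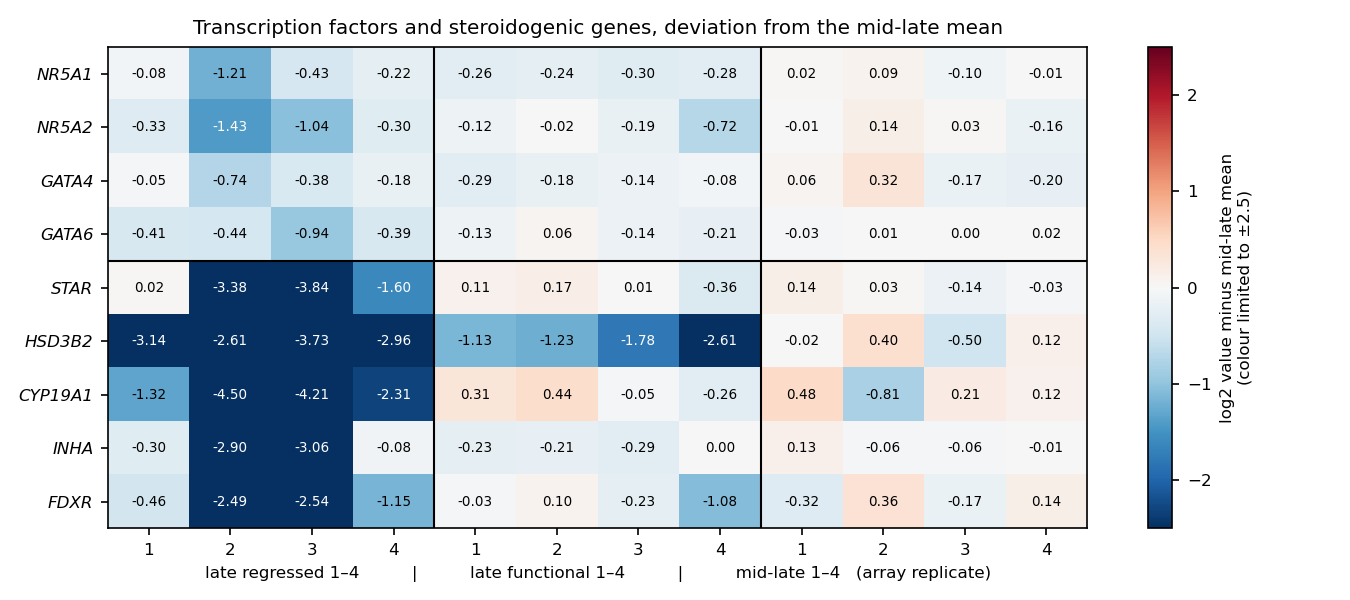
Log2 value of each array minus the mid-late mean for the 4 factors by their highest probe sets (top rows) and for STAR, HSD3B2, CYP19A1, INHA and FDXR (bottom rows), arrays in columns by group. Late regressed arrays 2 and 3 are low in nearly every row, while GATA6 lies 0.39 to 0.94 and HSD3B2 at least 2.61 below the mid-late mean on all 4 late regressed arrays.

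Candidate target genes of these factors were examined from a list of 36, of which 23 were measured. Against mid-late glands, 7 of the 23 were called lower in late regressed glands by limma, 0 higher and 16 neither, with a median log2 difference of -0.67 against -0.02 over all 14132 genes. Of all genes, 5.51% were called lower. The 7 were MRAP (accessory protein of the melanocortin receptor, -3.30), HSD3B2 (last step to progesterone, -3.11), CYP19A1 (aromatase, -3.09), STARD4 (cholesterol transfer, -1.89), FDXR (adrenodoxin reductase, -1.66), ALAS1 (first step of haem synthesis, -1.55) and GSTA1 (a glutathione transferase, -0.72). FDXR kept its call in 8 of 22 alternative settings and STARD4 in 13 of 22. Without late regressed arrays 2 and 3 the count was 3, all lower: HSD3B2 at -3.05, MRAP at -2.14 and CYP19A1 at -1.82. ALAS1 (-1.08), STARD4 (-1.07), FDXR (-0.80) and GSTA1 (-0.72) were then not called. The list was drawn up with earlier results of these data known and is not independent evidence of its direction. HSD3B2 and its close paralog HSD3B1, which was not measured under its own symbol, may share probes.

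The individual late regressed glands differed in these transcripts. STAR, which brings cholesterol into mitochondria, had 13.54, 10.14, 9.68 and 11.92 on late regressed arrays 1 to 4, 13.15 to 13.69 on late functional arrays and 13.38 to 13.66 on mid-late arrays (late regressed against mid-late -2.20, limma adjusted p = 0.0508). On late regressed array 1 STAR therefore lay inside the mid-late range, while GATA6 there was 0.41 and HSD3B2 3.14 below their mid-late means. Without late regressed arrays 2 and 3 the STAR difference from mid-late glands was -0.79 (limma adjusted p = 0.221). HSD3B2 had 8.52, 9.04, 7.93 and 8.70 on the late regressed arrays, 10.52, 10.43, 9.88 and 9.04 on the late functional arrays and 11.16 to 12.05 on the mid-late arrays.

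In late functional glands HSD3B2 fell against mid-late glands (-1.69, limma adjusted p = 0.0435), with GSTA1 (-0.79, adjusted p = 0.0327) the only other of 23, while GATA6 differed by -0.11 (95% interval -0.36 to 0.14). Both calls were fragile: HSD3B2 kept its own in 8 of 22 alternative settings and in 2 of the 12 fits without 1 array (adjusted p up to 0.122), and GSTA1 in 12 of 22 and 4 of 12 (adjusted p up to 0.108). Among all genes 0.594% were called lower in that comparison. INHA, the inhibin alpha subunit and a classic NR5A target, had 12.25, 9.65, 9.49 and 12.47 on late regressed arrays and 12.49 to 12.67 on mid-late arrays, a difference of -1.58 (limma adjusted p = 0.0982) that was -0.19 without arrays 2 and 3. Late functional array 4, the lowest of its group for NR5A2, was also the lowest of its group for FDXR (9.20, against 10.05 to 10.37 on arrays 1 to 3) and HSD3B2. The same array was the highest of its group for INHA (12.55, against 12.26 to 12.34 on arrays 1 to 3) and FDX1 (12.89).

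Between late regressed and late functional glands 0 of 23 were called by limma, with 11 lower and 1 higher at an unadjusted p under 0.05, where 16.1% of all genes passed that limit in either direction. The list's median log2 difference there was -0.51, against 0.0026 over all genes. The macrophage markers, 7 of 8 measured, had per-array averages, relative to mid-late, of 0.37 to 2.61 in late regressed, 1.08 to 1.33 in late functional and -0.85 to 0.97 in mid-late glands. None of the 7 was called by limma in any comparison, with 6 higher at an unadjusted p under 0.05 between late regressed and mid-late glands. Of all probe sets, 29.6% passed that limit there in either direction. The macrophage averages were highest on late regressed arrays 2 and 3, at 2.11 and 2.61. Of other cell types, 4 of 7 fibroblast markers (FBLN1 by 1.74, COL14A1 by 1.33, DPT by 1.29 and DCN by 0.93) and 3 of 8 endothelial markers (TEK by 0.89, CLDN5 by 0.70 and ERG by 0.53) rose in late regressed against mid-late glands by limma. Of all genes, 7.6% were called higher there. The other 3 fibroblast markers and the endothelial marker KDR (-0.83, limma adjusted p = 0.226) were lower and not called. Of 22 alternative settings, the call held in 21 for FBLN1 and for CLDN5, 18 for ERG and 15 for TEK. It held in 10 for DPT, 7 for DCN and 5 for COL14A1. The pericyte marker MCAM was called lower by 0.88, 1 of 4 measured in its list, where 5.51% of all genes were called lower. Its call held in 9 of 22 alternative settings. The smooth muscle and pericyte list was split, with 2 of 4 differences negative and a median of -0.09. Averages of that list ran from -0.45 to 0.43 in late regressed, -0.21 to 0.46 in late functional and -0.20 to 0.40 in mid-late glands. Of the T and NK cell markers 0 of 5 were called by limma. Between late regressed and mid-late glands 1 was higher at an unadjusted p under 0.05, against the same 29.6% of all probe sets. Fibroblast averages ran from 0.23 to 0.60 in late regressed, -0.08 to 0.31 in late functional and -0.49 to 0.48 in mid-late glands. Endothelial averages ran from 0.12 to 0.37 in late regressed, 0.10 to 0.26 in late functional and -0.10 to 0.05 in mid-late glands. On the same scale the 5 luteal markers ran from -3.23 to -0.96 in late regressed, -0.60 to -0.19 in late functional and -0.11 to 0.16 in mid-late glands. The part of these shifts in the lower levels of the factors and the candidate target genes was not tested.

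Cofactors were measured for 13 of 20 listed genes. Between late regressed and mid-late glands 2 were called higher by limma, 0 lower and 11 neither, where 7.6% of all genes were called higher. They are the paralogous acetyltransferases CREBBP and EP300, which act with many transcription factors. EP300 had 9.28, 9.47, 9.58 and 9.27 on late regressed arrays, against 8.55, 8.51, 8.72 and 8.93 on mid-late arrays (0.73, SE 0.10, adjusted p = 0.00697), and 3 of its 5 other probe sets were called in the same direction. CREBBP rose by 0.78 (adjusted p = 0.0218) and, unlike EP300, was not called without late regressed arrays 2 and 3 (0.50, adjusted p = 0.0994). EP300 was also the single cofactor called between late functional and mid-late glands (0.59, adjusted p = 0.0363), where 0.58% of all genes were called higher. That call held in 11 of 22 alternative settings and in 5 of the 12 fits without 1 array (adjusted p up to 0.115).

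Among corepressors of NR5A receptors, PROX1 averaged 5.32 in late regressed, 5.29 in late functional and 5.81 in mid-late glands. Every array of both late groups lay below the mid-late arrays, and neither difference was called (-0.49 and -0.52, limma adjusted p = 0.0619 and 0.113). NCOR1 and DDX20, also above the dim limit, differed by 0.17 and -0.06 between late regressed and mid-late glands (limma adjusted p = 0.21 and 0.774). These values are of the brightest probe sets. The 4 other NCOR1 probe sets were also higher, by 0.16 to 0.74, and 2 of them were called. The 2 other DDX20 probe sets had the opposite sign, at 0.17 and 0.32, with 0 called. NR0B1 (DAX1), with 4.23, 3.67, 3.53 and 4.02 on late regressed arrays and 5.09, 3.98, 3.99 and 3.97 on mid-late arrays, had a mean over the 12 arrays under the limit of 4.64. NR0B2 (SHP) lay at that limit, and PPARGC1A, a coactivator, under it. The GATA partner ZFPM2 had no probe set under its symbol. CITED2, a coregulator, was bright, at 11.15, 10.16, 9.88 and 10.95 on late regressed and 10.85 to 11.23 on mid-late arrays, and was not called (-0.52, limma adjusted p = 0.192).

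Other luteal and gonadal transcription factors, 28 of 34 measured, were higher where they were called. Between late regressed and mid-late glands 4 rose and 0 fell by limma, where 7.6% of all genes were called higher, and the list's median difference was 0.16, against -0.02 over all genes. CEBPA, a basic leucine zipper factor also abundant in macrophages, rose by 2.14 (adjusted p = 0.0185), WT1 by 0.92 (adjusted p = 0.0266), NR2F2 (COUP-TFII) by 0.60 (adjusted p = 0.00697) and the lipogenic factor SREBF1 by 0.59 (adjusted p = 0.0134). NR2F2, an orphan nuclear receptor of stromal cells in mice, had 9.98, 10.11, 9.99 and 9.76 on late regressed, 9.41, 9.47, 9.64 and 9.48 on late functional and 9.33, 9.29, 9.33 and 9.48 on mid-late arrays. Its late regressed arrays lay above all others, and without arrays 2 and 3 NR2F2 (0.51, adjusted p = 0.0396) and CEBPA (1.12, adjusted p = 0.0288) kept their calls. WT1 and SREBF1 did not (adjusted p = 0.171 and 0.0803).

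CEBPA had 7.20, 8.70, 9.30 and 6.71 on late regressed arrays 1 to 4, with its high values on the 2 arrays that also had the highest macrophage means. CEBPB, NR4A1 and FOXO1, which act in luteinisation or luteal gene control, were not called (0.55, -0.43 and -0.17, limma adjusted p = 0.136, 0.703 and 0.642, between late regressed and mid-late glands). No factor of this list was called in the other comparisons by limma, with 1 lower and 4 higher at an unadjusted p under 0.05 between the late groups and 0 lower and 3 higher between late functional and mid-late glands, where 20.1% of all genes passed that limit in either direction.

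Of the other GATA genes, 3 of 4 were measured, GATA1 and GATA3 by dim probe sets. GATA2, an endothelial and blood progenitor factor, differed by -0.11 (limma adjusted p = 0.608), and its 2 other probe sets had the opposite sign. GATA3, a T cell factor, was dim, at 3.46 ± 0.03 in late regressed and 3.46 ± 0.14 in mid-late glands. GATA1, a red cell factor, was called lower by 0.29 (adjusted p = 0.0481) at a mean of 4.55, under the limit for dim probe sets, and its call was lost in 20 of 21 alternative settings. The late regressed and mid-late arrays of GATA1 overlapped at 4.61.

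**Figure D4:**
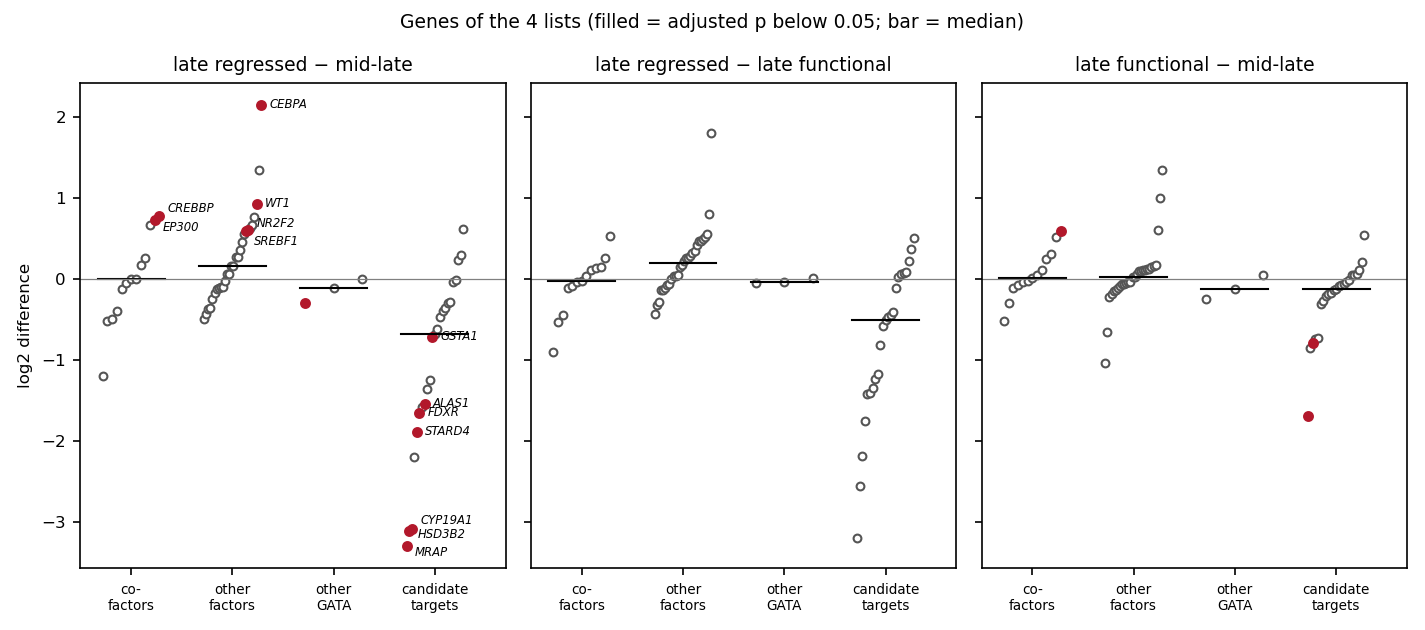
Log2 differences (vertical axis) of the measured genes in the lists of cofactors, other luteal and gonadal factors, other GATA genes and candidate target genes, in the 3 comparisons. Each point is a gene by its highest probe set, filled points have an adjusted p under 0.05 and bars are list medians. Called genes of the target list are all lower, and those of the cofactor and factor lists all higher.

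The genes whose values ran most like each factor over the 12 arrays were sought among 8828 genes with a signal above the dim limit, by Pearson's r, as a description. For GATA6 they were DHTKD1 (a mitochondrial dehydrogenase, r = 0.97), POFUT2 (a protein fucosyltransferase, 0.96), MRPS33 (a mitochondrial ribosomal protein, 0.94), SLAIN1 (a microtubule protein, 0.94) and PRTFDC1 (0.94). All 5 kept an r of at least 0.82 without late regressed arrays 2 and 3, and 0.76 among deviations from group means. The most opposite were TLE3 (a corepressor, -0.96), SH3BP2 (-0.95) and SRSF4 (-0.95).

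For NR5A2 the most like were ENC1 (r = 0.96), SYTL2 (0.96), PPIB (a cyclophilin of the endoplasmic reticulum, 0.95), APOL2 (0.95) and FKBP2 (0.95), and the most opposite MAN2C1 (-0.97), VANGL2 (-0.97) and OGA (-0.96). For NR5A1 they were IVD (a mitochondrial dehydrogenase of leucine breakdown, r = 0.98), XPNPEP3 (0.98), ARHGAP18 (0.98), ZNF414 (0.97) and CLPTM1 (0.97), against RRAS2 (-0.96), FKBP15 (-0.96) and PXDN (-0.95). For GATA4, by its brightest probe set only, they were GTF3C1 (r = 0.96), MTSS1 (0.94), UBE2M (0.93), CROT (0.93) and RHBDD1 (0.92), against CDK13 (-0.94), ARHGAP15 (-0.93) and PTPN12 (-0.93). No gene was among the most like of 2 factors. Late regressed arrays 2 and 3 enter every r, and without them the 5 genes most like NR5A1 had r from 0.79 (CLPTM1) to 0.94 (IVD).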

How the data were processed

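RNA of 12 corpora lutea was hybridised to Affymetrix rhesus arrays in 1 colour (biotin). The authors deposited 1 table of log2 values made with RMA, per the submitters' processing notes. No source used here gives the RMA version, its settings or scan dates, so batches could not be tested. Of 52865 probe sets, 158 controls were left out. The platform annotation gave 1 gene symbol to 24956 of the 52707 tested probe sets, several to 361 and none to 27390. Of the first, 24616 were looked up by Entrez ID in RefSeq (T2T-MMU8v2.0), and 0 symbols changed. For a gene with more than 1 probe set, the one with the highest mean over the 12 arrays stood for it. Groups and replicate numbers came from the labels, which call the samples biological replicates.

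Group means of all 12 arrays were compared in limma 3.58.1 (R 4.3.3), with no covariate. The number of arrays limits the precision. The scripts were tested on simulated data. Alternatives changed the filter, scaling, covariates, probe set rule or arrays used.

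Named genes were all probe sets of the 4 factors, the 5 genes most like and 3 most opposite to each by r, the called members of 4 gene lists (up to 6 a list, largest first), and 13 further genes where measured. GSTA1, CITED2, NR0B2, PPARGC1A, PROX1, NCOR1, DDX20, KDR and the called cell type markers were named after their values were seen. The members and lists were chosen with earlier results of these data known.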

Additional observations from a re-analysis of the deposited data

Results flagged for a closer look

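GATA6 on late regressed array 3 was 8.34, far below the other 3 arrays of its group (8.85 to 8.89): the gap to the nearest took 0.915 of the group's range. It was the 1 such value among 24 sets of 4 arrays examined, of which chance flags about 1 in 20. Without that array the GATA6 difference between late regressed and mid-late glands was -0.41 (limma adjusted p = 0.0229).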

How the results depend on the processing

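Between late regressed and mid-late glands 1 of the 4 genes was called in 16 of 22 alternatives. With dim probe sets removed, or a gene's probe sets averaged, the count was 2 (NR5A2 added, adjusted p = 0.046 and 0.0404). It was 0 in fits of only the groups compared, and 0 with the NC mean in the model. Without 1 array it ran from 1 to 3. It was 3 without late regressed array 1 (GATA6, NR5A2 at 0.028 and NR5A1 at 0.0461) and 2 without late regressed array 4. In the other comparisons it was 0 in all 22. Same-numbered arrays correlated at -0.12 to 0.30 in their deviations from group means, so the numbers were not taken to pair the samples. Late regressed arrays 1, 3 and 4 did run closest to the late functional array of their own number (r = 0.19, 0.02 and 0.30). With the replicate block the count stayed 1 (GATA6 adjusted p = 0.0269), and the NR5A2 probe set MmugDNA.8461.1.S1_at lost its call (0.0598).

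Signs turned in differences that were not called. For late regressed against late functional glands, NR5A1 was 0.00328 with the 3′ excess in the model, 0.122 without late regressed arrays 2 and 3, and -0.35 to 0.0286 over the fits without 1 array. GATA4 was 0.0572 and the NR5A2 probe set MmugDNA.17889.1.S1_at 0.00631 without arrays 2 and 3. For late functional against mid-late glands, GATA4 was 0.00652 and GATA6 0.0574 with the NC mean in the model, GATA4 was 0.0298 with averaged probe sets, and GATA4 MmugDNA.6375.1.S1_at was 0.0167 after a repeated quantile normalization. There, averaging turned NR5A1 minus NR5A2 to 0.0602 and GATA4 minus GATA6 to 0.137. Without 1 array they ran from -0.158 to 0.0652 and from -0.136 to 0.0397. The causes were not tested. Counts over the lists were repeated in 2 ways chosen after seeing the data. Without late regressed arrays 2 and 3, 3 candidate target genes, 1 cofactor and 2 other factors were called between late regressed and mid-late glands. With the NC mean in the model 0 of each were called. Scaling moved the median of all probe sets by under 0.1.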
